A study of Mus musculus with 4 samples.

Results

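The genes described here are 50 that build ribosomes: the subunits and factors of RNA polymerase I (9 genes), nucleolar scaffold and helicase proteins (6), the core proteins of small nucleolar ribonucleoproteins (snoRNPs, 8), factors that process the small ribosomal subunit (13) and factors that assemble the large subunit (14). They were taken from a list of gene symbols, which was drawn up with earlier results of these data known, and all 50 were found among the 34745 gene rows of the deposited table. All 50 also passed the filter on low counts that left 12927 genes to test. RNA was sequenced from cultures of T helper 17 (Th17) cells, the CD4+ T cells that make interleukin 17. The labels give 2 genotypes with 2 libraries each: Setd2-CD4 cre (replicates 22 and 24) and wild type (WT, replicates 13 and 15). Both genotypes were on the C57BL/6 strain, and in both the starting cells were naive CD4+ T cells of the spleen, kept for 3 days in Th17 conditions. Setd2 encodes a histone methyltransferase, and Cre driven by Cd4 sequences acts in all T cells that have passed through the CD4-expressing stage of the thymus, not in Th17 cells alone. The age and sex of the mice, the part of Setd2 that was removed, and whether the WT mice carried Cre or an altered allele are not stated in the labels.

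Ribosomes are made in the nucleolus. RNA polymerase I copies the ribosomal DNA into a long precursor RNA, snoRNPs place methyl groups and pseudouridines on it, and separate sets of factors cut it and fold it with ribosomal proteins into the small and the large subunit. T cells that have been activated enlarge their nucleoli and raise this pathway before they divide, and the transcription factor Myc is a known driver of many of its genes.

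The ribosome biogenesis genes were not shifted as a whole in Setd2-CD4 cre cells. Of the 50, 8 rose, 11 fell and 31 did not pass the test, a share of 38% called, against 30.7% of all genes tested (adjusted p under 0.05, edgeR's quasi-likelihood test). The shares for each direction over all genes were 16.2% higher and 14.5% lower. The median log2 fold change (Setd2-CD4 cre over WT) was -0.01 over the 50 and -0.01 over all genes tested, and the 50 ranged between -0.93 (Gar1) and 0.76 (Npm1). The 2 libraries of each genotype did not overlap for 31 of the 50, which is 62.0%, against 70.7% of all genes tested. By role, the shares called were 22.2% for RNA polymerase I, 33.3% for scaffold and helicase proteins and 62.5% for the snoRNP core. They were 46.2% for the small subunit and 28.6% for the large subunit, against 30.7% of all genes, and no test compared the roles. The snoRNP core held 5 falls and no rise. RNA polymerase I held 2 rises and no fall, though some other settings, given below, call Polr1b or Ubtf lower. The processing and assembly factors moved in both directions.

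**Figure D1:**
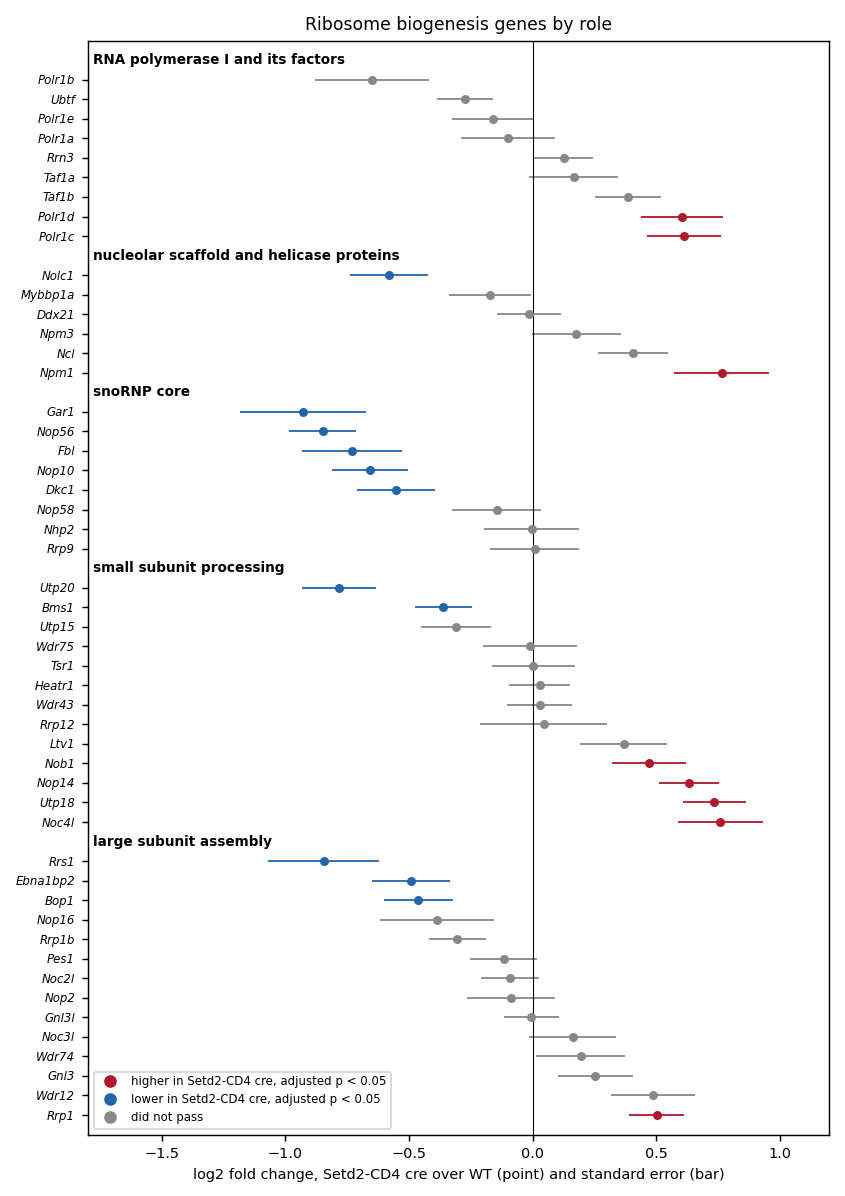
Fitted log2 fold change (x axis, Setd2-CD4 cre over WT) of each of the 50 genes (y axis, grouped by role), with points for the estimate and bars for its standard error, coloured by the test result. The 8 genes that rose lie between 0.47 and 0.76, the 11 that fell between -0.93 and -0.36, and 5 of the 11 are snoRNP core genes.

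Libraries held 11007343 and 11322621 counts in Setd2-CD4 cre cells, and 12518415 and 12414098 counts in WT cells. Values below are CPM, counts set to a library of 1000000 and scaled by TMM factors. Setd2 itself had 143.8 and 152.9 CPM in Setd2-CD4 cre cells, against 183.6 and 176.3 CPM in WT cells, and its log2 fold change of -0.28 did not pass the test (SE 0.10, adjusted p = 0.0748). Reads from exons that stay in the transcript would still be counted, so the check is weak. Genes that mark T cells and Th17 cells were present in all 4 libraries. The 8 Th17 markers summed to 1322 and 1551 CPM in Setd2-CD4 cre cells, against 669 and 778 CPM in WT cells, and 5 of the 8 rose, with a median log2 fold change of 0.71. Markers of other cells differed too: the 14 B cell markers summed to 807 and 564 CPM in Setd2-CD4 cre cells, against 269 and 230.1 CPM in WT cells, and 12 of the 14 rose. The 8 CD8 T and NK cell markers summed to 493 and 308 CPM in Setd2-CD4 cre cells, against 216 and 240.4 CPM in WT cells, with 3 of 6 tested higher. The 8 myeloid and dendritic cell markers summed to 81.8 and 59.7 CPM in Setd2-CD4 cre cells, against 39.9 and 40.2 CPM in WT cells, with 2 of 5 tested higher (Flt3 and H2-Ab1). The other 3 tested had negative log2 fold changes that did not pass, so that the median of the 5 was -0.56. Xcr1 and Clec9a were at 0 in both Setd2-CD4 cre libraries. WT replicate 15 also had 2 of the 8 markers at 0, and WT replicate 13 had 0 of them at 0. The 8 T cell markers summed to 3142 and 3245 CPM in Setd2-CD4 cre cells, against 3802 and 3596 CPM in WT cells, and 5 of the 8 fell. The part of these cells in the results below was not tested. In bulk RNA, fewer cells of a type and less RNA per cell cannot be told apart.

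Among the 9 listed genes of RNA polymerase I, the 2 subunits shared with RNA polymerase III rose, and the other 7 did not pass in this fit. Some other settings, given below, called Polr1b or Ubtf lower. The split holds for these 9 genes only: of the further polymerase I genes given below, the SL1 subunit Taf1d rose and the polymerase subunit Cd3eap fell. Polr1c, a subunit of both enzymes (chr17:46243920-46248054, minus strand, GRCm38), had 84.3 and 67.8 CPM in Setd2-CD4 cre cells, against 53.8 and 45.8 CPM in WT cells. Polr1d, its partner in the assembly platform of both enzymes (chr5:147077050-147111597, plus strand), had 118.4 and 84.5 CPM in Setd2-CD4 cre cells, against 67.6 and 65.9 CPM in WT cells. For both genes each Setd2-CD4 cre library lay above each WT library, while 70.7% of all genes tested did not overlap. The log2 fold changes were 0.61 for Polr1c (SE 0.15, adjusted p = 0.0193) and 0.60 for Polr1d (SE 0.16, adjusted p = 0.0295).

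Polr1a encodes the largest, catalytic subunit of the enzyme and had 49.9 and 52.4 CPM in Setd2-CD4 cre cells, against 44.1 and 65.6 CPM in WT cells, so the genotypes overlapped (log2 fold change -0.10, SE 0.19, adjusted p = 0.711). Polr1b encodes the second large subunit. It had 12.9 and 10.2 CPM in Setd2-CD4 cre cells, against 14.9 and 21.2 CPM in WT cells, and the log2 fold change was -0.65 (SE 0.23, adjusted p = 0.0660). Ubtf, the factor that binds along the ribosomal DNA, had 93.4 and 99.0 CPM in Setd2-CD4 cre cells, against 110.4 and 122.4 CPM in WT cells (log2 fold change -0.27, SE 0.11, adjusted p = 0.0993). Neither of these genes overlapped between genotypes, and neither passed the test. Rrn3, which joins the polymerase to its promoter, had 67.4 and 70.9 CPM in Setd2-CD4 cre cells, against 66.9 and 59.8 CPM in WT cells (log2 fold change 0.13, SE 0.12, adjusted p = 0.446). Taf1b, a subunit of the promoter selectivity factor SL1, had 55.8 and 48.3 CPM in Setd2-CD4 cre cells, against 40.5 and 39.2 CPM in WT cells (log2 fold change 0.39, SE 0.13, adjusted p = 0.0606). The remaining genes, Polr1e and Taf1a, had log2 fold changes of -0.16 and 0.17 with adjusted p-values of 0.476 and 0.508. In the edgeR fit described above, and in DESeq2 and limma-voom, no gene of this group was lower past the threshold, and 2 were lower at an unadjusted p under 0.05 in edgeR. That count depends on the filter, the scaling and the libraries. Polr1b was called lower by edgeR with no filter on low counts (adjusted p = 0.0356), with upper-quartile factors (0.0418), with library totals (0.0328) and without Setd2-CD4 cre replicate 22 (0.0162). Ubtf was called lower with upper-quartile factors (0.0356), library totals (0.0296) and cyclic loess (0.0419) and without Setd2-CD4 cre replicate 24 (0.0237). Upper-quartile factors, library totals and cyclic loess did not call Polr1d. On the deposited FPKM the group held no call in either direction, with adjusted p-values of 0.0575 and 0.0572 for Polr1c and 0.0991 and 0.0978 for Polr1d at the pseudocounts 1 and 0.1. Without WT replicate 15 the adjusted p was 0.164 for Polr1c and 0.138 for Polr1d, and without WT replicate 13 it was 0.108 for Polr1d. The log2 fold change of Polr1d was 0.35 without Setd2-CD4 cre replicate 22.

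Some scaffold proteins are among the most abundant of the nucleolus, and Npm1 and Ncl held the largest counts of the 50 genes. Npm1, the histone chaperone nucleophosmin (chr11:33152287-33163206, minus strand), had 1753 and 1171 CPM in Setd2-CD4 cre cells, against 880.1 and 841 CPM in WT cells. Both Setd2-CD4 cre libraries were above both WT libraries, but they lay further apart from each other than the WT libraries did. The log2 fold change was 0.76 (SE 0.19, adjusted p = 0.0232). Ncl, the RNA-binding protein nucleolin, had 1422 and 1152 CPM in Setd2-CD4 cre cells, against 963 and 981 CPM in WT cells, again without overlap. Its log2 fold change of 0.40 did not pass in edgeR (SE 0.14, adjusted p = 0.0615) and passed in DESeq2 (adjusted p = 0.0230). Nolc1, a chaperone that binds snoRNPs in the nucleolus and in Cajal bodies, moved the other way, with 37.5 and 32.5 CPM in Setd2-CD4 cre cells, against 46.6 and 58.1 CPM in WT cells (log2 fold change -0.58, SE 0.16, adjusted p = 0.0273). Mybbp1a, a Myb-binding protein of the nucleolus, had 77.6 and 56.7 CPM in Setd2-CD4 cre cells, against 70.5 and 80.7 CPM in WT cells (log2 fold change -0.17, SE 0.17, adjusted p = 0.457). Ddx21, an RNA helicase that acts on both polymerase I transcription and processing, and Npm3, a relative of nucleophosmin, had log2 fold changes of -0.02 and 0.18 and overlapped between genotypes. Pseudogene copies of Npm1 and Npm3 exist, and no source used here says how reads shared with such copies were counted. Without WT replicate 13 the adjusted p of Npm1 was 0.0872, and without WT replicate 15 it was 0.124 for Npm1 and 0.263 for Nolc1. Leaving out Setd2-CD4 cre replicate 22 gave Npm1 a log2 fold change of 0.45. Cyclic loess did not call Npm1, and neither did the fits on the deposited FPKM.

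The snoRNP core was the group with the most calls in a single direction. SnoRNPs of 2 families modify ribosomal RNA, each with its own set of core proteins: box C/D particles add methyl groups with the methyltransferase fibrillarin (Fbl) on a scaffold of Nop56 and Nop58, and box H/ACA particles make pseudouridine with dyskerin (Dkc1), helped by Gar1, Nhp2 and Nop10. Of the 3 box C/D genes 2 fell, and of the 4 box H/ACA genes 3 fell. The remaining gene, Rrp9, whose protein marks the U3 snoRNP, had 15.9 and 14.5 CPM in Setd2-CD4 cre cells, against 16.2 and 13.9 CPM in WT cells. The median log2 fold change of the 8 genes was -0.61, against -0.01 over all genes tested, and 5 of 8 is 62.5%, against 14.5% of all genes called lower. The count of rises was 0 in edgeR, also at an unadjusted p under 0.05, and 0 by DESeq2 and limma-voom.

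Nop56, Dkc1, Gar1 and Nop10 are the snoRNP core genes that fell and have an annotated start in the RefSeq promoter table (GRCm38.p6). The 250 bases before that start are shown to place these members of both particles side by side. Nop58, Nhp2 and Rrp9, which gave no call, also have windows, which are not shown. The windows are chr2:130274162-130274411 (plus strand) for Nop56, chrX:75095604-75095853 (plus strand) for Dkc1, chr3:129831397-129831646 (minus strand) for Gar1 and chr2:112261676-112261925 (plus strand) for Nop10, each read 5′ to 3′ on the strand of its gene. Capitals mark the ETS-family core CCGGAAG, searched on both strands, of which Gar1 held a copy as CTTCCGG that begins 43 bases before the start. The window of Nhp2 holds a copy too, which begins 23 bases before its start.
Nop56: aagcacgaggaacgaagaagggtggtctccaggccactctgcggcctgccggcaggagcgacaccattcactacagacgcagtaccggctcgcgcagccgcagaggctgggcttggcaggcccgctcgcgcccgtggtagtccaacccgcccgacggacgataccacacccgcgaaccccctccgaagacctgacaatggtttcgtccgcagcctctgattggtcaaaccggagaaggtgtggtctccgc
Dkc1: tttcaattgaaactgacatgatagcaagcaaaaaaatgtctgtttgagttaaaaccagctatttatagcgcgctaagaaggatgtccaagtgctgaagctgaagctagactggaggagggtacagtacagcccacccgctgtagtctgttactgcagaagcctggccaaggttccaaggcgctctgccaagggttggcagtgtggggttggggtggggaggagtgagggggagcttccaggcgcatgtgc
Gar1: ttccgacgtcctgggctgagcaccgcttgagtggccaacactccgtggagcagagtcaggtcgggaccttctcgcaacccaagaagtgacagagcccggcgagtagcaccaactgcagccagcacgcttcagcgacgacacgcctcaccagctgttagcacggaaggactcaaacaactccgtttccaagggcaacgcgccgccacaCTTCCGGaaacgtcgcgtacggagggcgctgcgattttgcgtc
Nop10: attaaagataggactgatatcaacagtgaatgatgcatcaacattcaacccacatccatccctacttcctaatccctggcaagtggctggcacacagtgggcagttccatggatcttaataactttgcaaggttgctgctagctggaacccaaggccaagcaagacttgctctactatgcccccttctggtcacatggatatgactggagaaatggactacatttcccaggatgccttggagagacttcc
None of the 4 windows held the E-box CACGTG, the letters that Myc binds with Max. No match says only that these letters are not in these windows.

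Nop56, the box C/D scaffold (chr2:130274430-130279313, plus strand), had 39.8 and 38.2 CPM in Setd2-CD4 cre cells, against 64.4 and 76.3 CPM in WT cells. Its log2 fold change was -0.85 (SE 0.13, adjusted p = 0.00398), the smallest p-value of the 50 genes. Fbl (chr7:28169748-28179269, plus strand) had 30.0 and 19.8 CPM in Setd2-CD4 cre cells, against 39.7 and 42.9 CPM in WT cells (log2 fold change -0.73, SE 0.20, adjusted p = 0.0304). Nop58, the other scaffold protein of the same particle, had 86.5 and 62.2 CPM in Setd2-CD4 cre cells, against 74.2 and 90.2 CPM in WT cells. It overlapped between genotypes, and its log2 fold change of -0.15 did not pass (SE 0.18, adjusted p = 0.561).

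Dkc1, the pseudouridine synthase (chrX:75095854-75109777, plus strand), had 27.0 and 23.6 CPM in Setd2-CD4 cre cells, against 33.6 and 40.5 CPM in WT cells (log2 fold change -0.55, SE 0.16, adjusted p = 0.0327). Gar1 (chr3:129824912-129831396, minus strand) was the lowest of the group, with 6.43 and 4.58 CPM in Setd2-CD4 cre cells, against 9.76 and 11.2 CPM in WT cells (log2 fold change -0.93, SE 0.25, adjusted p = 0.0287). Behind those values stood 66 and 50 reads in Setd2-CD4 cre cells, against 128 and 147 reads in WT cells. Nop10 (chr2:112261926-112263269, plus strand) had 27.3 and 22.3 CPM in Setd2-CD4 cre cells, against 40.6 and 37.5 CPM in WT cells (log2 fold change -0.66, SE 0.15, adjusted p = 0.0165). In all 5 genes that fell, each Setd2-CD4 cre library lay below each WT library. That is not separate support, since the test used the same values, and 70.7% of all genes tested did not overlap. Nhp2, the last protein of the particle, did not share this, with 39.9 and 28.5 CPM in Setd2-CD4 cre cells, against 31.3 and 37.4 CPM in WT cells (log2 fold change 0.00, SE 0.19, adjusted p = 0.986).

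The calls in this group rest on small numbers of libraries. Nop56 passed without each library in turn (adjusted p = 0.0446 without WT replicate 15, its largest), and the other 4 genes did not pass without WT replicate 13 or without WT replicate 15. Without WT replicate 13 the adjusted p was 0.0733 for Fbl, 0.0719 for Dkc1, 0.0962 for Gar1 and 0.118 for Nop10, and without WT replicate 15 it was 0.136, 0.297, 0.189 and 0.0797 in the same order. Fbl had a log2 fold change of -0.46 without Setd2-CD4 cre replicate 24. DESeq2 and cyclic loess scaling each left Nop56, Fbl and Nop10 called and did not call Dkc1 or Gar1.

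**Figure D2:**
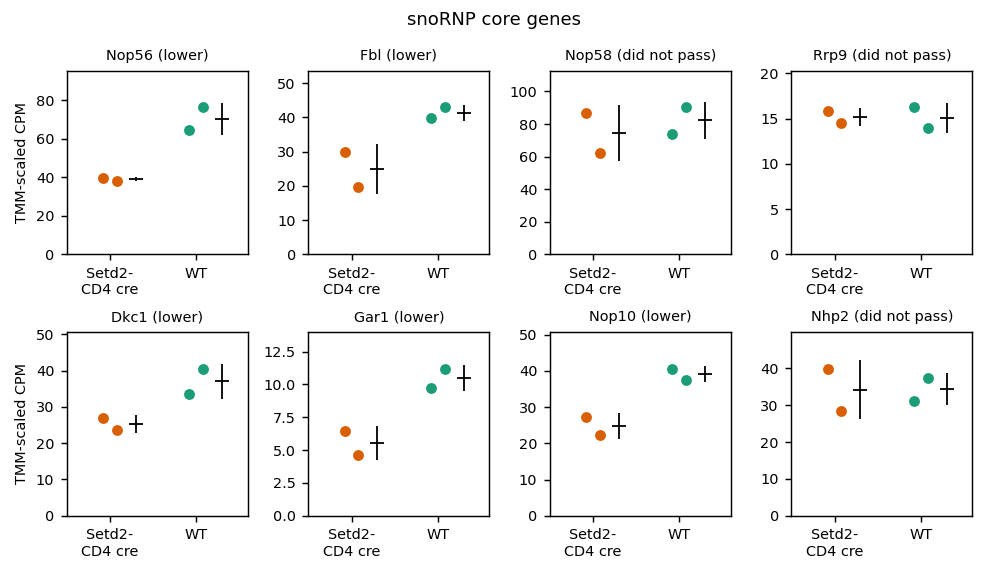
TMM-scaled CPM (y axis, from 0) of the 8 snoRNP core genes in the 2 Setd2-CD4 cre libraries (left, orange) and the 2 WT libraries (right, green), with a horizontal line for the mean and a vertical bar for the SD. In Nop56, Fbl, Dkc1, Gar1 and Nop10 the 2 genotypes do not overlap and Setd2-CD4 cre is lower, while in Nop58, Rrp9 and Nhp2 the points overlap.

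Factors of the small subunit moved in both directions, with 4 of 13 higher and 2 lower, a share of 46.2%, against 30.7% of all genes called. The early precursor is bound by the small subunit processome, and 3 of the 4 rises were of its proteins: Utp18, Nop14 and Noc4l, the last of which pairs with Nop14 in yeast. Utp18 (chr11:93859243-93885766, minus strand) had 79.7 and 71.4 CPM in Setd2-CD4 cre cells, against 43.0 and 47.8 CPM in WT cells (log2 fold change 0.73, SE 0.13, adjusted p = 0.00556). Nop14 (chr5:34638536-34660148, minus strand) had 76.2 and 68.3 CPM in Setd2-CD4 cre cells, against 46.9 and 46.2 CPM in WT cells (log2 fold change 0.63, SE 0.12, adjusted p = 0.00815). Noc4l (chr5:110648418-110653417, minus strand) had 55.6 and 42.2 CPM in Setd2-CD4 cre cells, against 26.5 and 31.2 CPM in WT cells (log2 fold change 0.76, SE 0.17, adjusted p = 0.0149). In each of these genes the lower Setd2-CD4 cre library was above the higher WT library, which is not support apart from the test. Utp18 had the smallest p-value of the members that rose, and its window, chr11:93885767-93886016 on the minus strand (GRCm38.p6), holds an E-box CACGTG that begins 20 bases before the start and an ETS core CCGGAAG that begins 106 bases before it, both in capitals.
Utp18: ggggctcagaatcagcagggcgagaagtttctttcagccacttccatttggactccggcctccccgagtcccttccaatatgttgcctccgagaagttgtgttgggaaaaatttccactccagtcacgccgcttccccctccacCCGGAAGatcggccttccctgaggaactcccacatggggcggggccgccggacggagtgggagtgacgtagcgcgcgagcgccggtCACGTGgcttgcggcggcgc

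Utp20, a very large protein of the same processome (chr10:88746607-88826814, minus strand), went against those 3, with 33.6 and 27.5 CPM in Setd2-CD4 cre cells, against 50.3 and 54.9 CPM in WT cells (log2 fold change -0.78, SE 0.15, adjusted p = 0.00782). Bms1, the processome's GTPase, had 76.3 and 68.3 CPM in Setd2-CD4 cre cells, against 91.5 and 94.3 CPM in WT cells (log2 fold change -0.36, SE 0.12, adjusted p = 0.0471). Nob1, the endonuclease that makes the last cut of the small subunit RNA, had 52.6 and 42.3 CPM in Setd2-CD4 cre cells, against 33.6 and 34.9 CPM in WT cells (log2 fold change 0.47, SE 0.15, adjusted p = 0.0469). These last 2 calls lie close to the threshold.

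The other 7 small subunit genes did not pass. Utp15, Heatr1, Wdr43 and Wdr75 belong to the subcomplex that binds the precursor while it is being transcribed, and their log2 fold changes lay between -0.31 (Utp15) and 0.03, with adjusted p-values of 0.130 to 0.971. Heatr1 was nearly equal in the genotypes, at 56.8 ± 0.240 CPM in Setd2-CD4 cre cells and 55.7 ± 4.47 CPM in WT cells (SD, n = 2 each). Tsr1, a late factor of the subunit, Rrp12, which takes part in export, and Ltv1, a late assembly factor, had log2 fold changes of 0.00, 0.04 and 0.37, with adjusted p-values of 0.991, 0.910 and 0.146.

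Of the small subunit calls, none passed without each of the libraries in turn. Without WT replicate 13 the adjusted p was 0.0580 for Utp18, 0.0643 for Nop14, 0.104 for Noc4l, 0.214 for Bms1 and 0.236 for Nob1. Without WT replicate 15 it was 0.0664 for Utp20, 0.0802 for Nop14, 0.290 for Bms1 and 0.206 for Nob1. Nob1 had a log2 fold change of 0.31 without Setd2-CD4 cre replicate 22 (adjusted p = 0.0835). DESeq2 did not call Bms1 or Nob1, RLE factors did not call Bms1, and upper-quartile factors, library totals, cyclic loess and limma-voom did not call Nob1. The fits on the deposited FPKM did not call Nob1 either.

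Large subunit factors gave 1 rise and 3 falls among 14, a share of 28.6%, near the 30.7% of all genes called. Rrp1, the mouse form of a yeast factor of large subunit RNA processing (chr10:78400362-78413043, minus strand), had 274.7 and 239.6 CPM in Setd2-CD4 cre cells, against 183 and 180.3 CPM in WT cells (log2 fold change 0.50, SE 0.11, adjusted p = 0.0136). Its relative Rrp1b had 57.1 and 54.5 CPM in Setd2-CD4 cre cells, against 70.2 and 67.5 CPM in WT cells, without overlap and on the other side (log2 fold change -0.30, SE 0.11), but it did not pass the test (adjusted p = 0.0774). Rrs1, which helps bring the small 5S ribonucleoprotein into the subunit (chr1:9545408-9547455, plus strand), had 7.79 and 6.51 CPM in Setd2-CD4 cre cells, against 11.5 and 14.2 CPM in WT cells (log2 fold change -0.84, SE 0.22, adjusted p = 0.0259). It was counted from 80 and 71 reads in Setd2-CD4 cre cells, against 151 and 186 reads in WT cells. Ebna1bp2, a partner of Rrs1 in yeast, had 29.0 and 22.9 CPM in Setd2-CD4 cre cells, against 36.4 and 36.5 CPM in WT cells (log2 fold change -0.49, SE 0.16, adjusted p = 0.0484).

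Bop1, Pes1 and Wdr12 form the PeBoW complex, which is needed to process the large subunit RNA, and the 3 did not move alike. Bop1 had 24.5 and 25.9 CPM in Setd2-CD4 cre cells, against 33.5 and 36.0 CPM in WT cells (log2 fold change -0.46, SE 0.14, adjusted p = 0.0382). Pes1 had 54.5 and 45.0 CPM in Setd2-CD4 cre cells, against 54.1 and 53.8 CPM in WT cells (log2 fold change -0.12, SE 0.14, adjusted p = 0.539). Wdr12 had 38 and 28.9 CPM in Setd2-CD4 cre cells, against 23.7 and 24.0 CPM in WT cells, higher in both libraries without passing (log2 fold change 0.49, SE 0.17, adjusted p = 0.0603). So in a complex of 3 proteins, the RNA of 1 fell and the other 2 gave no call.

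Among the remaining 8 large subunit genes none passed, with log2 fold changes between -0.39 (Nop16) and 0.25 (Gnl3). Nop2, a methyltransferase of the large subunit RNA, had a log2 fold change of -0.09, and Gnl3, the nucleolar GTPase nucleostemin, and its relative Gnl3l had 0.25 and -0.01. Noc2l and Noc3l, which act together in yeast, had -0.09 and 0.16, and Wdr74, a nucleolar WD-repeat protein, had 0.19. Their adjusted p-values were between 0.229 and 0.969. Without WT replicate 13 the adjusted p was 0.108 for Rrp1, 0.0756 for Rrs1, 0.197 for Ebna1bp2 and 0.162 for Bop1, and without WT replicate 15 it was 0.131, 0.227, 0.225 and 0.294 in the same order. Without Setd2-CD4 cre replicate 24 Ebna1bp2 had an adjusted p of 0.0845 and a log2 fold change of -0.33. DESeq2 called none of the 3 falls of this group, cyclic loess called neither those nor Rrp1, and RLE factors did not call Ebna1bp2.

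The 2 Setd2-CD4 cre libraries differed from each other more than the WT libraries did in these genes, and this was not particular to them. In a principal component analysis of all genes tested, the second component held 16.5% of the variance. Setd2-CD4 cre replicates 22 and 24 lay at -25.8 and 30.6 on it, against 1.47 and -6.28 for WT replicates 13 and 15. Of the 50, 42 were higher in Setd2-CD4 cre replicate 22 than in replicate 24, with a median log2 difference of 0.29, while over all genes tested 6450 of 12927 were higher. The scaling keeps that count over all genes near the middle, so it shows direction and not the size of the spread. In WT cells 14 of the 50 were higher in replicate 13 than in replicate 15, with a median log2 difference of -0.12, against 6745 of 12927 over all genes tested. The 50 genes took 0.545 and 0.442% of all counts in Setd2-CD4 cre cells, against 0.440 and 0.460% in WT cells. Without Ncl and Npm1 these shares were 0.249 and 0.218% in Setd2-CD4 cre cells, against 0.247 and 0.267% in WT cells. Other values moved with replicate 22 as well: it held the highest sum of B cell markers (807 CPM) and of CD8 T and NK cell markers (493 CPM) of the 4 libraries. Myc had 37.8 and 17.3 CPM in Setd2-CD4 cre cells, against 30.7 and 44.7 CPM in WT cells. Within each genotype it was higher in the library where most of the 50 genes were higher. Its log2 fold change between genotypes was -0.45 and did not pass (SE 0.43, adjusted p = 0.476), but without Setd2-CD4 cre replicate 22 it was -1.11 (adjusted p = 0.0317). The part of Myc and of the other cell types in the values of the 50 genes was not tested.

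**Figure D3:**
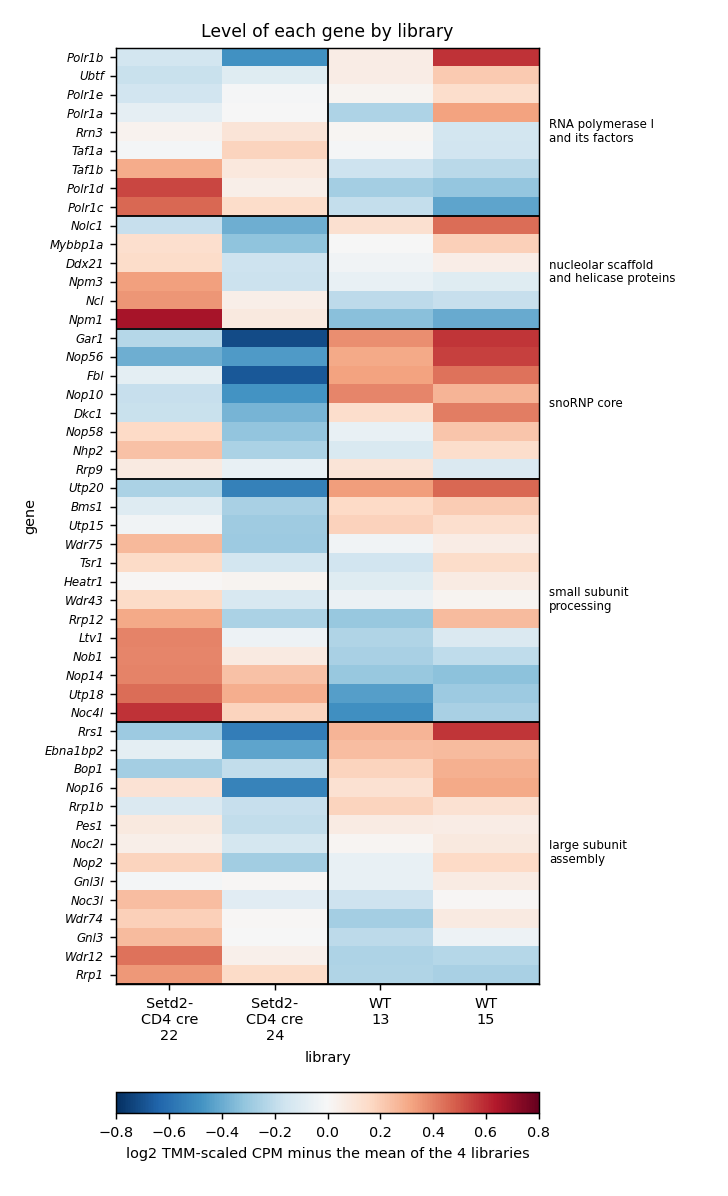
Log2 TMM-scaled CPM of each of the 50 genes (rows, by role) minus its mean over the 4 libraries (colour, red higher and blue lower), with the 2 Setd2-CD4 cre libraries left of the 2 WT libraries. Replicate 22 is redder than replicate 24 in 42 of the 50 rows, while rows such as Nop56 and Utp18 have the same colour in both libraries of a genotype.

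Comparing levels between genes needs a value per length, so the deposited FPKM values are given here. The length behind each FPKM value is not stated, so every order between genes below is that of the deposited FPKM and is uncertain. The median of the 50 was 9.38 FPKM in Setd2-CD4 cre cells and 11.5 FPKM in WT cells. Npm1 was the highest, at 343 ± 89.0 FPKM in Setd2-CD4 cre cells and 225 ± 5.66 FPKM in WT cells (SD, n = 2 each). Rrp1 and Ncl came next, with 121 and 100.5 FPKM in Setd2-CD4 cre cells and 95.2 and 84.4 FPKM in WT cells. Within the box H/ACA particle Nop10 had 21.1 FPKM in Setd2-CD4 cre cells and 37.1 FPKM in WT cells, and Nhp2 had 18.4 FPKM in Setd2-CD4 cre cells and 20.5 FPKM in WT cells. Dkc1 had 4.10 FPKM in Setd2-CD4 cre cells and 6.68 FPKM in WT cells, and Gar1 had 1.52 FPKM in Setd2-CD4 cre cells and 3.22 FPKM in WT cells. In both genotypes Nop10 stood above Nhp2, Dkc1 and Gar1 in that order. Within the box C/D particle Fbl had 20.3 FPKM in Setd2-CD4 cre cells and 37.6 FPKM in WT cells, Nop58 had 4.81 FPKM in Setd2-CD4 cre cells and 5.92 FPKM in WT cells, and Nop56 had 2.42 FPKM in Setd2-CD4 cre cells and 4.86 FPKM in WT cells. By mean CPM the order was Nop58, Nop56 and Fbl, with 74.3, 39.0 and 24.9 CPM in Setd2-CD4 cre cells. In WT cells it was the same, with 82.2, 70.4 and 41.3 CPM. For Nop56 the count and the FPKM imply a length above the span of its locus, so its FPKM rank is not reliable. FPKM is set against each library's whole count, so its difference between genotypes is not the TMM-scaled one.

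Other genes of the pathway were taken from a list of 112 symbols, of which 109 were matched and tested. In this list 19 rose and 6 fell, a share of 22.9%, with a median log2 fold change of 0.06. Of all genes tested 30.7% were called, 16.2% higher and 14.5% lower, so the list was called less often than all genes. Its 7 snoRNP assembly factors gave 1 fall and no rise (0 rises also by DESeq2 and limma-voom, and 1 at an unadjusted p under 0.05 in edgeR), its 38 small subunit genes 7 rises and 2 falls, its 43 large subunit genes 9 rises and 1 fall, its 8 polymerase I genes 2 rises and 1 fall, and its 13 exosome genes 1 rise and 1 fall. The shares called in these groups were 14.3, 23.7, 23.3, 37.5 and 15.4% in the same order. The split of rises and falls depends on the scaling and was 12 and 12 with upper-quartile factors, where 12.1% of all genes were higher and 20.2% lower.

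Exosc8, a ring subunit of the RNA exosome that trims the precursor, had the smallest p-value of the list, with 193.8 and 204.8 CPM in Setd2-CD4 cre cells, against 108.6 and 106.4 CPM in WT cells (log2 fold change 0.89, SE 0.10, adjusted p = 0.00149). The next rises were Tex10 and Gtpbp4, both factors of the large subunit, Taf1d, a subunit of SL1, and Nol10, a small subunit factor, with log2 fold changes of 0.87, 0.85, 0.81 and 0.85 (adjusted p = 0.00339, 0.00350, 0.00420 and 0.00497). These 5 genes passed without each library in turn. In the other direction Wdr46, a small subunit factor, had 13.7 and 14.9 CPM in Setd2-CD4 cre cells, against 25.9 and 27.2 CPM in WT cells (log2 fold change -0.89, SE 0.16, adjusted p = 0.00583). Rrp36 (small subunit), Pih1d1 (the chaperone complex that assembles snoRNPs), Exosc7 (RNA exosome) and Cd3eap (a subunit of RNA polymerase I) followed, with log2 fold changes of -0.73, -0.57, -0.52 and -0.94 (adjusted p = 0.0101, 0.0292, 0.0308 and 0.0381). Without WT replicate 13 the adjusted p was 0.0336 for Wdr46, 0.0828 for Rrp36, 0.212 for Pih1d1, 0.242 for Exosc7 and 0.267 for Cd3eap, and without WT replicate 15 it was 0.0552, 0.0737, 0.138, 0.142 and 0.111 in the same order.

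The ribosomal proteins that these factors assemble had other values. Of 83 cytosolic ribosomal protein genes tested, 31 rose and 0 fell (0 at an unadjusted p under 0.05 in edgeR, and 0 by DESeq2 and by limma-voom), with a median log2 fold change of 0.48. The rises were 37.3%, against 16.2% of all genes tested. Their summed level was 60570 and 46551 CPM in Setd2-CD4 cre cells, against 39456 and 38277 CPM in WT cells, so replicate 22 was again the higher of its genotype. The median was 0.24 without Setd2-CD4 cre replicate 22 and 0.67 without replicate 24. The count of rises was 4 without WT replicate 13, 3 without WT replicate 15, 37 without Setd2-CD4 cre replicate 22, where 1 gene fell, 71 without replicate 24, and 15, 13 and 10 with upper-quartile factors, library totals and cyclic loess. With those scalings 12.1, 10.9 and 14.0% of all genes were higher, and the shares of all genes without each library are given below. Of 77 mitochondrial ribosomal protein genes, 8 rose and 5 fell, a share of 16.9%, against 30.7% of all genes called. Their median log2 fold change was 0.09, and it was -0.02 and -0.07 with upper-quartile factors and library totals and -0.04 without Setd2-CD4 cre replicate 22. Against these, the 50 biogenesis genes had a median of -0.01 and the snoRNP core -0.61. Many ribosomal protein genes have near-identical pseudogene copies, so their counts are uncertain in the same way as those of Npm1.

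Some of the 50 genes have features of their loci that the choice of symbols did not use. How common these features, or the close starts described next, are over all genes was not counted. In the GENCODE annotation (release M21, GRCm38) 7 of them carry snoRNA genes inside their span, 21 in all: Nop56 holds 5, Nop58 holds 4, Ncl, Wdr43 and Gnl3 hold 3 each, Tsr1 holds 2 and Dkc1 holds 1. Of these 7 hosts 2 fell, 0 rose and 5 gave no call in edgeR, with 1 higher at an unadjusted p under 0.05 (Ncl, which DESeq2 also called). Over all genes tested 16.2% were called higher and 14.5% lower. An exon of 17 of the 50 genes is overlapped by a gene on the other strand, among them Nop56 by Idh3b (log2 fold change 0.33, adjusted p = 0.154), Dkc1 by Mpp1 (0.05, adjusted p = 0.813) and Bop1 by Mroh1 (0.34, adjusted p = 0.0620). No source used here says whether counting used strand, so reads of such pairs cannot be told apart. None of those 3 partners passed the test. The partner of Nop14, the 1 overlapped gene that rose, had 0 counts in all 4 libraries, and the other 13 overlapped genes gave no call.

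Start sites of 10 of the 50 genes lie within 1000 bases of the start of a protein-coding gene that runs away on the other strand. Utp18 and Mbtd1, a chromatin protein whose start is 86 bases away, both rose, with log2 fold changes of 0.73 and 0.48 (adjusted p of Mbtd1 0.0163). Utp15 and Ankra2, 33 bases apart, had log2 fold changes of -0.31 and -1.07, and only Ankra2 passed (adjusted p = 0.00397). Noc4l and Ddx51, a helicase of the large subunit that lies 34 bases away, had 0.76 and 0.20, and Bop1 and Hsf1, the heat shock factor 145 bases away, had -0.46 and 0.36, the neighbour not passing in either pair (adjusted p = 0.386 and 0.0650). Not all 10 pairs are given here. In those given the log2 fold changes were not always alike, and no test compared the genes of a pair.

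A promoter window was matched for 44 of the 50 genes, of which Fbl was not one. The E-box CACGTG was in 3 of the 44 windows (6.82%), those of Nop2, Rrn3 and Utp18, against 931 of the 9327 windows of tested genes (9.98%). The ETS core CCGGAAG was in 11 of 44 (25.0%), against 16.4% of the windows of tested genes. Both were searched on both strands of the 250 bases before the start. Of the 3 genes with an E-box, Utp18 rose, and Nop2 and Rrn3 gave no call.

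The number of the 50 genes called depended on the libraries and on the tool. Without WT replicate 13, 1 gene was called higher and 3 lower, which is 4 of 50, while 12.4% of all genes were called, 6.88% higher and 5.5% lower. Without WT replicate 15, 2 were higher and 1 lower, while 9.63% of all genes were called, 5.4% higher and 4.24% lower. Without Setd2-CD4 cre replicate 22, 8 were higher and 17 lower, while 37.1% of all genes were called, 19.7% higher and 17.3% lower. Without Setd2-CD4 cre replicate 24, 14 were higher and 11 lower, while 44.3% of all genes were called, 22.8% higher and 21.6% lower. Each of these 2 fits called 7 genes that had not passed with all 4 libraries: without replicate 22, Polr1b, Mybbp1a, Nop58, Utp15, Nop16 and Rrp1b were lower and Ncl higher, and without replicate 24, Taf1b, Ncl, Npm3, Ltv1, Gnl3 and Wdr12 were higher and Ubtf lower. DESeq2 called 8 higher and 5 lower, while it called 16.7% of all genes, 9.55% higher and 7.13% lower. Those DESeq2 shares are over the 18410 genes with a count, not the 12927 that passed the filter. They are therefore not on the same footing as the edgeR shares or as the 50, all of which passed the filter. Of the 19 genes called with all 4 libraries, Nop56 alone was called without each library in turn. The split of the 50 moved with that of all genes when the scaling changed. Upper-quartile factors gave 6 higher and 14 lower, while 32.4% of all genes were called, 12.1% higher and 20.2% lower. Library totals gave 6 higher and 15 lower, while 33.2% of all genes were called, 10.9% higher and 22.3% lower. On log2(FPKM + 1) 4 were higher and 12 lower, while 30.5% of all genes were called, 9.65% higher and 20.8% lower, and on log2(FPKM + 0.1) the 50 gave the same counts, while 30.1% of all genes were called, 9.75% higher and 20.4% lower. Cyclic loess gave 5 higher and 8 lower, while 26.8% of all genes were called, 14.0% higher and 12.8% lower. With no filter 10 were higher and 12 lower, while 23.6% of all 18410 genes with a count were called, 12.3% higher and 11.2% lower.

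**Figure D4:**
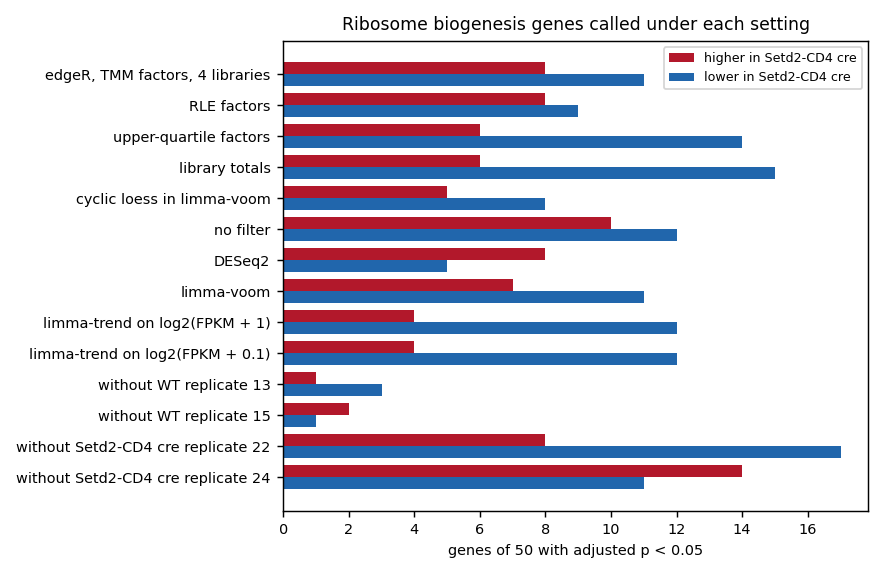
Number of the 50 genes (x axis) called higher (red) or lower (blue) in Setd2-CD4 cre cells at an adjusted p under 0.05, for each setting (y axis). The counts are 8 and 11 with all libraries, 1 and 3 without WT replicate 13, and 2 and 1 without WT replicate 15.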

How the data were processed

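RNA was measured by sequencing in 4 Th17 libraries, 2 Setd2-CD4 cre and 2 WT, grouped by the numbers and genotypes in the sample titles. In 1 WT library the title says 15 and the cell type label 14, and the number in the title was used. Total RNA was extracted with TRIzol and sequenced on an Illumina HiSeq, per the labels' protocols. The authors deposited whole-number counts per gene and FPKM values, per the file headers. Bowtie2, RSEM, GRCm38.p6 and mm10 are named in the submitters' processing notes, without role or version. No source used here gives the gene models, the use of strand or the handling of shared reads.

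The deposited counts went unchanged into edgeR 4.0.16 (R 4.3.3, TMM factors, filterByExpr with a minimum count of 10, robust quasi-likelihood fit, Benjamini-Hochberg adjustment over 12927 genes, threshold 0.05). Fold changes are log2, Setd2-CD4 cre over WT, with standard errors. The TMM factors were 0.934 and 0.964 for Setd2-CD4 cre 22 and 24, and 1.05 and 1.06 for WT 13 and 15. Up to 3 counts are compatible with a count of 0, or 0.273 and 0.265 CPM in the Setd2-CD4 cre libraries and 0.240 and 0.242 CPM in the WT libraries, for counting error only. An exact permutation test of 2 libraries against 2 cannot give a p below 0.333, so genes were tested only in the fit across all genes. The labels do not say that libraries came from separate mice, so the p-values reflect only how far these samples spread, and that spread may be technical. Alternatives were other scalings, no filter, DESeq2 1.42.0, limma 3.58.1 on voom values and on log2(FPKM + 1) and log2(FPKM + 0.1), and leaving out each library. The fits were tested on simulated data.

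The 50 genes, their roles, the lists and the tests were chosen with earlier results of these data known. Named with values in every library are the 4 genes of each role with the smallest p-values, 9 set genes (Polr1a, Polr1b, Rrn3, Ubtf, Ncl, Npm1, Fbl, Nop56 and Dkc1), the 5 other pathway genes with the smallest p in each direction (in part by fold change only), Myc and Setd2. Further genes of the 50 with values per library were added after their values were seen. Of 208 listed symbols 201 matched directly, 4 through a synonym and 3 not at all. Gene positions are those of the deposited table, 35 of 50 equal to GENCODE M21. Promoters are from RefSeq.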

Additional observations from a re-analysis of the deposited data

How the results depend on the processing

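No paired analysis was possible because the replicate numbers of the genotypes (22 and 24 against 13 and 15) are not shared. Leaving out each library in turn gave 1 to 14 of the 50 genes higher and 1 to 17 lower, 718 to 3068 of all genes higher and 564 to 2903 lower, and 6 to 34 other pathway genes higher and 0 to 17 lower (the 0, without WT replicate 15, was 6 at an unadjusted p under 0.05 in edgeR). In those fits the lone library of a genotype is assumed to vary like the other pair. On log2(FPKM + 1) and log2(FPKM + 0.1), 4 and 4 of the 50 were higher, as were 1247 and 1260 of all genes and 9 and 9 other pathway genes, while 12 and 12 other pathway genes were lower. Cyclic loess gave 5 of the 50 and 12 other pathway genes higher. DESeq2 gave 5 of the 50 and 2 other pathway genes lower. Upper-quartile factors gave 12 other pathway genes higher and 12 lower, and library totals gave 10 higher, 14 lower and 2879 of all genes lower. Over all genes the split was 2094 higher and 1880 lower with TMM factors, 1565 and 2617 with upper-quartile factors, 1409 and 2879 with library totals, and 1247 and 2692 on log2(FPKM + 1). The median log2 fold change of the 50 moved by less than the spread between pairs of libraries (SD 0.172 on the log2 scale), but its sign depends on the library left out: it was -0.12 without WT replicate 13 and -0.16 without Setd2-CD4 cre replicate 22, and 0.04 without WT replicate 15 and 0.08 without Setd2-CD4 cre replicate 24, while the median of all genes stayed between -0.02 and 0.00. With upper-quartile factors and library totals both medians moved together, to -0.12 and -0.16. No named gene changed direction past the threshold under these settings. The cause of these differences was not tested. Depth limits the lowest genes most: Gar1 was counted from 50 to 147 reads a library.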

Other observations

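Nop10 lies 14.8 kb from Lpcat4, the phospholipid enzyme named in the title of the study, with 1 gene between them (Nutm1). Lpcat4 had 21 and 19 CPM in Setd2-CD4 cre cells, against 41.3 and 39.5 CPM in WT cells (log2 fold change -1.01, SE 0.14, adjusted p = 0.00260 in edgeR). Both genes fell. The pair was chosen after its values were seen, and no relation between them was tested.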
